A study of Mus musculus with 2 samples.

Results

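The variable segments of the alpha and beta chains of the mouse T cell receptor were taken as all genes whose symbol begins with Trav or Trbv followed by a digit. They numbered 165 of the 31253 genes in the deposited tables, 35 Trbv segments on chromosome 6 and 130 Trav segments on chromosome 14. Some of the Trav segments, those with dv in their names, can also be joined to the delta chain. The segments proper to the gamma and delta chains were left out.

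The study read the RNA of single cells from mouse gliomas. They were sorted alive as CD45.2-positive and CD45.1-negative, which the labels call endogenous, so cells carrying CD45.1 were left out of both libraries. There was 1 library from a tumour sample treated with PBS, for which no time is given, and 1 from a tumour sample treated with EM, whose title gives 72 h. The labels do not spell out EM, and they give neither the strain, age and number of the animals nor the glioma model. The series title concerns adoptive macrophages and the immunosuppressive environment of glioblastoma, so the comparison asks how the receptors of host T cells in the tumour differed between EM and PBS. With 1 library per group there is no replicate check and no test, and the treatment cannot be told apart from differences between animals, which each form their own receptor repertoire. All intervals are exact 95% intervals that cover counting error only and treat cells as independent, which cells of 1 clone are not.

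Each T cell builds its receptor by joining 1 variable segment to further short segments, independently for the alpha and the beta chain, in the thymus. The joined variable segment is then transcribed together with a constant gene, Trac for alpha and Trbc1 or Trbc2 for beta, and all descendants of the cell inherit it. When a T cell meets its antigen in a tumour and divides, its segments become more frequent among the T cells there, so uneven segment use is one of the known signs of clonal expansion, although unrelated cells may share a segment.

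T cells were cells with at least 2 UMIs (unique molecular identifiers, each counting 1 captured RNA molecule) of Cd3d, Cd3e and Cd3g together. They numbered 4064 in PBS (median 4548 UMIs per cell) and 4903 in EM (median 2186). Trac was detected in 95% and 88.8% of them and Trbc1 or Trbc2 in 97.0% and 94.4%. CD8 cells, with at least 2 UMIs of Cd8a and Cd8b1, numbered 3188 and 2502. CD4 cells, with at least 1 Cd4 UMI, numbered 688 and 1561, and cells with a Foxp3 UMI, the factor of regulatory T cells, 158 and 704. The libraries shared 66 cell barcodes, and with those cells removed no segment value moved past its interval or its call. The libraries were unlike in sex-linked expression. In T cells Xist, the RNA of X inactivation, stood at 3.61 CPM (the UMIs of a gene scaled to equal library totals) for PBS against 394.5 for EM, while Ddx3y of the Y chromosome stood at 176.5 against 4.71. The part of sex in the differences below cannot be told apart from that of treatment.

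The segments on which the results turn are shown by the end of their coding sequence, where the sequence peculiar to each segment runs into the joint. Each line gives the last 120 coding bases from the GENCODE M21 annotation of GRCm38, the assembly also called mm10, 5′ to 3′, with the last in-frame cysteine codon in capitals. In these segments it encodes the conserved cysteine at which the hypervariable loop formed by the joint begins. Trbv15 lies at chr6:41141188-41141658, Trbv3 at chr6:41048290-41048828, Trbv12-2 at chr6:41118851-41119364 and Trbv2 at chr6:41047340-41047995, all on the plus strand, and Trbv31 at chr6:41557691-41558452 on the minus strand. Trav12-2 lies at chr14:53616315-53616914, Trav6-5 at chr14:53491115-53491622, Trav3-3 at chr14:53665929-53666506 and Trav19 at chr14:53845234-53845827, all on the plus strand.
Trbv15: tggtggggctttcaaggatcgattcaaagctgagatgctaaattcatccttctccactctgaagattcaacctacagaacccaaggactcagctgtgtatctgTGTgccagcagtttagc
Trbv3: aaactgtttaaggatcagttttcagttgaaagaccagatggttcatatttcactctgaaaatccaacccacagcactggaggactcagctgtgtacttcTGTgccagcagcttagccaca
Trbv12-2: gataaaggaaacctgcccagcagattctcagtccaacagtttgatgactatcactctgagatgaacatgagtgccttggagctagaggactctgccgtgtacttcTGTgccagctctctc
Trbv2: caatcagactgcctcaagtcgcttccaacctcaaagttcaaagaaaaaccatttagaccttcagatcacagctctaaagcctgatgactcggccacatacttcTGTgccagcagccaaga
Trbv31: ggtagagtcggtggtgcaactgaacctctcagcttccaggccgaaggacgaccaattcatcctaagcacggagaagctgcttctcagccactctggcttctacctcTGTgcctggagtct
Trav12-2: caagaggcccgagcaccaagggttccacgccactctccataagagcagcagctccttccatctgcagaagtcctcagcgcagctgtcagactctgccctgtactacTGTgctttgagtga
Trav6-5: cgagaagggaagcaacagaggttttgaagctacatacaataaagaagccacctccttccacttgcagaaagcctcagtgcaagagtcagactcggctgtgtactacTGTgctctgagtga
Trav3-3: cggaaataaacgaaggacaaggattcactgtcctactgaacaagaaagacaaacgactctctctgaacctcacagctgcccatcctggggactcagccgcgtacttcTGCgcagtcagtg
Trav19: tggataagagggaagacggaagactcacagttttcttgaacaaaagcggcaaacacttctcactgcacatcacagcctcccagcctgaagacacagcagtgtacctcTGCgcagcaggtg

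The alpha locus of the reference holds duplicated blocks, so many Trav segments have near copies marked d or n. The Trav16 copies, which led the alpha chains of EM, are printed over their last 270 coding bases, with the 6 positions at which any of the 3 differ in capitals. Trav16 (chr14:53743104-53743705) and Trav16n (chr14:53351028-53351621) differed at 4 of these bases, Trav16 and Trav16d-dv11 (chr14:53047287-53047821) at 5, and Trav16n and Trav16d-dv11 at 3, all on the plus strand.
Trav16: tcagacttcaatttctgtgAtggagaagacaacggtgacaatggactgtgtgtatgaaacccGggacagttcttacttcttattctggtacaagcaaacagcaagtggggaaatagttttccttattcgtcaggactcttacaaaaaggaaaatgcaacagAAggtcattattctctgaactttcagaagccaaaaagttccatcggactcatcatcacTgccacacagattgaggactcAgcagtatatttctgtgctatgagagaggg
Trav16n: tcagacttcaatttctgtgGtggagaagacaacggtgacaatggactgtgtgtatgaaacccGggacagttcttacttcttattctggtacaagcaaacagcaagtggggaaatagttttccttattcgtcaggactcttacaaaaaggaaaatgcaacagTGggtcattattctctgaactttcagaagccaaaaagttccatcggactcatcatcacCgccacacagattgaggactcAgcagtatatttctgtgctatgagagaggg
Trav16d-dv11: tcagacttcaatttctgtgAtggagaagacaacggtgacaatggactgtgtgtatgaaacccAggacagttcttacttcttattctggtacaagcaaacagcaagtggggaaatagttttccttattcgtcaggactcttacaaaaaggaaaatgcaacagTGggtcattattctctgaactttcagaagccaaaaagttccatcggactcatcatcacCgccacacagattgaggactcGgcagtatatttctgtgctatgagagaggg

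Variable segments were detected in few T cells. The 35 Trbv segments gave 332 UMIs in PBS T cells and 143 in EM T cells, and the 130 Trav segments 237 and 94. At least 1 Trbv UMI was present in 302 of 4064 PBS T cells (7.43%, 6.64 to 8.28%) and in 136 of 4903 EM T cells (2.77%, 2.33 to 3.27%). For Trav the shares were 5.27% (4.60 to 6%) and 1.84% (1.48 to 2.25%). The libraries differed in depth, as given above. After each cell was thinned to 1000 UMIs, which left out 38 PBS and 109 EM T cells, Trbv was detected in 1.59% (1.23 to 2.03%) and 1.00% (0.739 to 1.33%) and Trav in 1.09% (0.795 to 1.46%) and 0.939% (0.686 to 1.25%). Most detections were of a single molecule, 275 of the 302 Trbv-positive PBS cells (91.1%) and 129 of the 136 EM cells (94.9%).

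Outside T cells the signal was at or near 0. Among all kept cells without a Cd3 UMI, a Trbv UMI was present in 4 of 3254 in PBS (0.123%) and 2 of 2474 in EM (0.0808%). Classes among them were set by marker genes: B cells by at least 2 UMIs of Cd79a, Cd79b and Ms4a1, myeloid cells by at least 5 of Lyz2, Csf1r, C1qa, C1qb and C1qc, and NK-like cells by 1 or more of Ncr1 and Klrb1c with fewer myeloid UMIs. No Trbv UMI was found in 83 B cells, 213 NK-like cells and 1608 myeloid cells of PBS (median 2432, 2655 and 8637 UMIs), nor in 113, 471 and 869 such cells of EM (median 2259, 2238 and 964 UMIs). In the NK-like cells a floor of 3 cells is 1.41% in PBS and 0.637% in EM, and the exact intervals of these zeros reach 1.72% and 0.780%. Trav gave 1 positive myeloid cell in PBS (0.0622%) and none in these other classes. The NK-like cells had a Trbc1 or Trbc2 UMI in 72.3% of PBS and 65.6% of EM cells, so constant-region RNA was frequent there with no variable segment detected.

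Each cell was assigned to the segment of a chain with the most UMIs, which left 296 PBS and 135 EM T cells with a Trbv segment and 205 and 90 with a Trav segment. Shares below are shares of these assigned cells. Comparisons of 1 segment between libraries concern the same reference sequence, but the libraries differed in depth and may differ in their animals. A share also falls where another segment is frequent. The order of segments within a library carries, in addition, how well each is captured and mapped.

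In PBS, CD8 cells were dominated by Trbv15. It led in 85 of 243 assigned CD8 cells (35.0%, 29.0 to 41.3%) and in 2 of 77 in EM (2.60%, 0.316 to 9.07%), so the EM share was 0.0743 of the PBS share (0.00885 to 0.277). The next segments of PBS were Trbv19 with 36 cells (14.8%, 10.6 to 19.9%), Trbv12-2 with 33 (13.6%, 9.54 to 18.5%) and Trbv3 with 27 (11.1%, 7.45 to 15.8%). The next after these, Trbv13-2, led in 11 PBS cells (4.53%).

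In EM the most used Trbv segment of CD8 cells was Trbv3, with 15 of 77 cells (19.5%, 11.3 to 30.1%), followed by Trbv12-2 with 12 (15.6%, 8.32 to 25.6%), Trbv2 with 10 (13%, 6.41 to 22.6%) and Trbv17 with 8 (10.4%, 4.59 to 19.5%). Trbv2 was assigned to 4 of 243 CD8 cells in PBS (1.65%), 7.89-fold below EM (2.28 to 34.5), and Trbv17 to 2 (0.823%), 12.6-fold below (2.52 to 122). After thinning to 1000 UMIs per cell Trbv17 was left in 0 PBS and 3 EM cells, an interval that included equality. The intervals of the ratio of EM over PBS included equality for Trbv3 (1.75, 0.867 to 3.42), Trbv12-2 (1.15, 0.540 to 2.28) and Trbv19 (0.438, 0.134 to 1.12). Of the 4 Trbv segments with at least 20 assigned CD8 cells in both libraries together, 1 (25%) had an interval that excluded equality, Trbv15. All 4 reached that number through PBS alone, so nothing is read from this count. For Trbv15 equality was also excluded after thinning, with 17 PBS cells and 1 EM cell (ratio 0.0966, 0.00231 to 0.617).

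**Figure D1:**
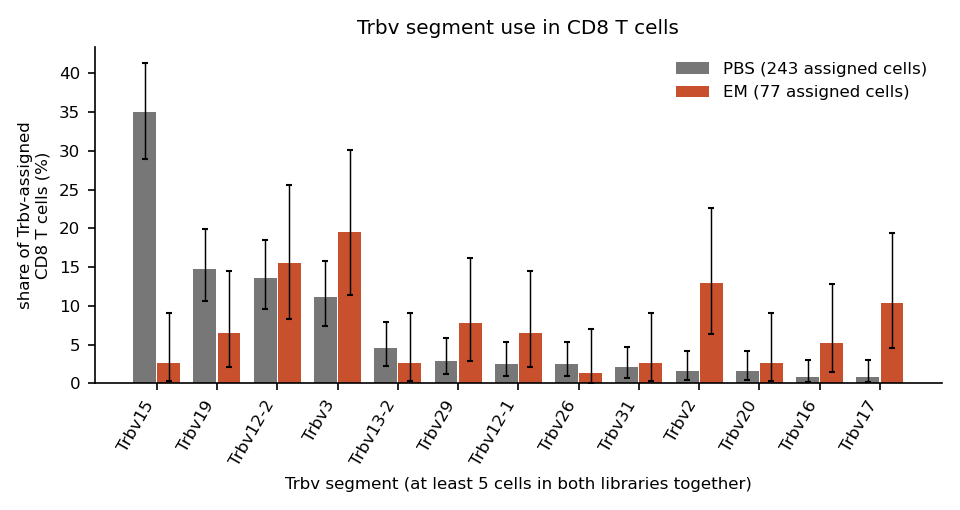
Share of Trbv-assigned CD8 T cells (y axis, percent) led by each Trbv segment with at least 5 cells in both libraries together (x axis), in PBS (grey, 243 cells) and EM (orange-red, 77 cells); lines are exact 95% intervals for counting error. Trbv15 stands at 35.0% in PBS and 2.60% in EM, and Trbv3 is the highest EM bar at 19.5%.

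Among the alpha chains of CD8 cells of PBS, Trav12-2 led in 41 of 173 assigned PBS cells (23.7%, 17.6 to 30.8%), Trav6-5 in 28 (16.2%, 11.0 to 22.5%) and Trav3-3 in 23 (13.3%, 8.62 to 19.3%). None of the 3 was found in the 50 assigned EM cells, for which the exact interval reaches 7.11%. Set against a floor of 3 EM cells (6%), which leaves out the counting error of the PBS cells, Trav12-2 was at least 3.95-fold lower in EM, Trav6-5 at least 2.70-fold and Trav3-3 at least 2.22-fold. The exact intervals of the ratio of EM over PBS, which include that error, are wider and reach up to 0.326, 0.487 and 0.602. When each cell was thinned to 1000 UMIs, 7 PBS cells with Trav12-2 and none of EM remained, and the interval of the ratio then included equality (0 to 1.18). These 3 were all the Trav segments with at least 20 assigned CD8 cells (3 of 3, 100%), and each reached that number through PBS alone, so nothing is read from their count.

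In EM, Trav16d-dv11 led in 16 of 50 CD8 cells (32.0%, 19.5 to 46.7%), against 2 of 173 in PBS (1.16%, 0.140 to 4.11%), a ratio of 27.7 (6.51 to 248). After thinning, 2 PBS and 6 EM cells remained, and the interval included equality (ratio 5.10, 0.912 to 51.7). Trav16 followed with 8 EM cells (16.0%) against 7 PBS cells (4.05%), a ratio of 3.95 (1.25 to 12.8), with 1 and 2 cells left after thinning (3.4, 0.177 to 200.6). Trav19 led in 7 EM cells (14.0%, 5.82 to 26.7%) and in no PBS cell, at least 8.07-fold higher against a floor of 3 PBS cells, with an exact ratio interval from 4.99 upwards. Trav8n-2 led in 5 EM cells (10%) and 1 PBS cell (0.578%). Reads of the near-identical Trav16 copies can be split between them, and how the counting treated reads that match several genes is not given in the sources used here. Summed over the copies, the Trav16 family led in 15 of 174 PBS cells (8.62%, 4.90 to 13.8%) and 27 of 50 EM cells (54.0%, 39.3 to 68.2%), a ratio of 6.26 (3.22 to 12.7). The other segments named here had near copies too: Trav6-5 differed from Trav6n-5 at 1 of 270 bases, and Trav3-3 from each of Trav3d-3 and Trav3n-3 at 4.

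**Figure D2:**
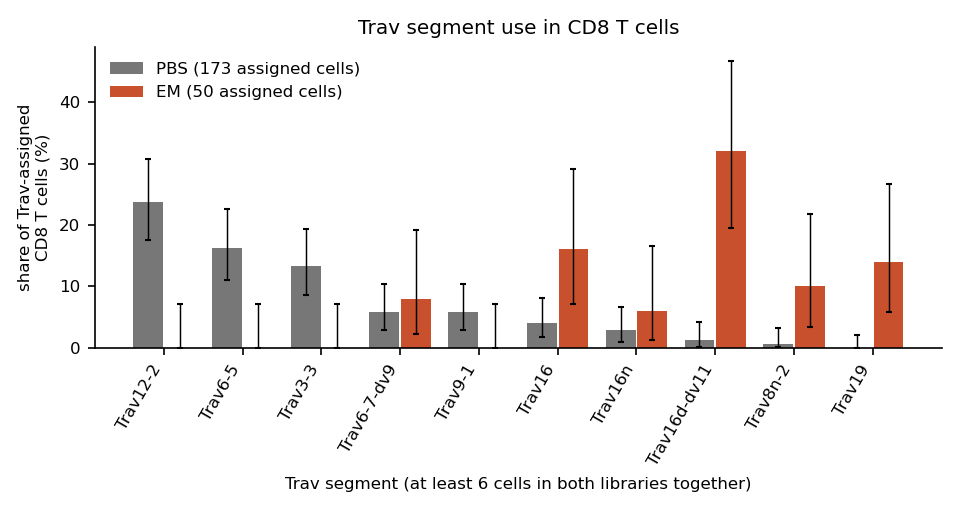
Share of Trav-assigned CD8 T cells (y axis, percent) led by each Trav segment with at least 6 cells in both libraries together (x axis), in PBS (grey, 173 cells) and EM (orange-red, 50 cells); lines are exact 95% intervals for counting error. Trav12-2, Trav6-5 and Trav3-3 have PBS bars of 23.7%, 16.2% and 13.3% and no EM cell, while Trav16d-dv11 stands at 1.16% in PBS and 32.0% in EM.

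Evenness was measured as the effective number of segments, the number of equally used segments that would give the same chance that a pair of cells shares a segment. For Trbv in CD8 cells it was 5.64 in PBS and 10.1 in EM, so beta segment use was less even in PBS. For a common number of 45 cells, 12.1 Trbv segments were expected in PBS and 13.6 in EM. The Trav order was the opposite: 9.24 in PBS and 6.48 in EM, with 13 and 9.49 segments expected among 28 cells. Summed by family, which joins near copies, the Trav effective numbers were 6.4 and 3.06.

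CD8 cells with a UMI of Pdcd1, the gene of the inhibitory receptor PD-1, used few Trbv segments in both libraries. Their effective number was 4.13 in PBS (152 cells) and 4.41 in EM (25 cells), against 8.71 (91 cells) and 11.4 (52 cells) in CD8 cells without Pdcd1. Median depths were 5290 and 4270 UMIs in all CD8 cells of PBS with and without Pdcd1, and 3471 and 2293 in EM. Different segments led the Pdcd1-positive cells. Trbv15 led in 67 of 152 Pdcd1-positive PBS cells (44.1%, 36.0 to 52.4%) and 18 of 91 negative ones (19.8%), while Trbv3 led in 11 of 25 Pdcd1-positive EM cells (44.0%, 24.4 to 65.1%) and 4 of 52 negative ones (7.69%). Trav12-2 led in 33 of 112 Pdcd1-positive PBS cells (29.5%), and Trav16d-dv11 in 11 of 19 Pdcd1-positive EM cells (57.9%, 33.5 to 79.8%) and 5 of 31 negative ones (16.1%). After thinning, Trbv3 led in 2 of 28 assigned CD8 cells of EM (7.14%) and in 7 of 46 of PBS, so its lead in EM did not hold at that depth.

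**Figure D3:**
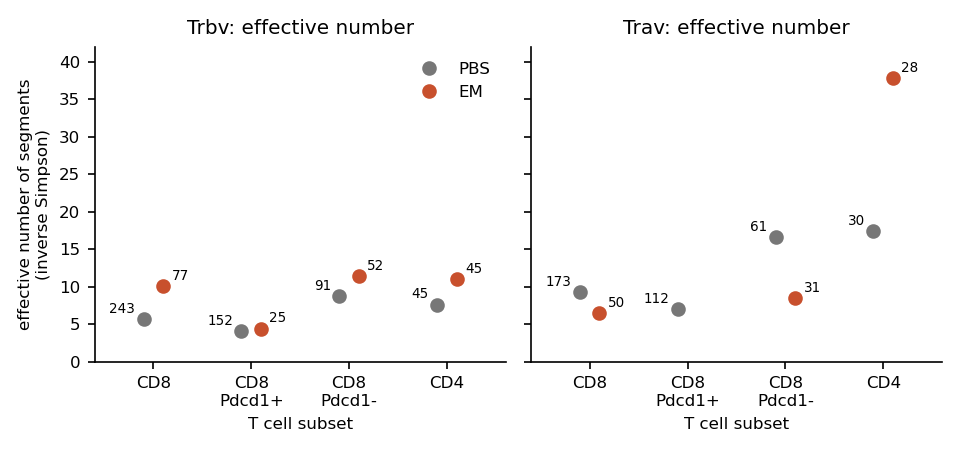
Effective number of Trbv (left) and Trav (right) segments (y axis, inverse Simpson index) by T cell subset (x axis) in PBS (grey) and EM (orange-red); the small number at each point counts assigned cells, and sets under 20 cells are not drawn. Trbv in CD8 cells stands at 5.64 in PBS and 10.1 in EM, and at 4.13 and 4.41 where Pdcd1 was detected.

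Both chains were seen in 24 T cells of PBS and 2 of EM. Of the 24 pairs, 8 joined Trav12-2 with Trbv15, and these were all the pairs with Trav12-2. Trbv15 was present in 14 of the 24 pairs, also with Trav6-5 in 3 cells, Trav9-1 in 2 and Trav6-7-dv9 in 1. Trav3-3 was paired with Trbv12-2 in 2 cells and with Trbv13-3 in 1. The EM pairs were Trav16d-dv11 with Trbv3 and Trav16 with Trbv2, in 1 cell each. The pair of Trav16d-dv11 and Trbv3 also occurred in 1 PBS cell.

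The beta constant genes gave a readout that the choice of segments did not use, looked at after the segment values were known. A rearranged beta chain continues into Trbc1 or Trbc2, so cells of 1 clone share that choice. Median depth was 4798 UMIs in all CD8 cells of PBS. It was 5597 in Trbv15, 6537 in Trav12-2, 4896 in Trav6-5, 6038 in Trbv12-2 and 7455 in Trav3-3 cells. In PBS, Trbc1 was detected in 60.1% of all CD8 cells (58.4 to 61.8%), 65.4% of Trbv-assigned and 59.5% of Trav-assigned ones. It was detected in 76 of 85 Trbv15 cells (89.4%, 80.9 to 95%), 38 of 41 Trav12-2 cells (92.7%, 80.1 to 98.5%) and 25 of 28 Trav6-5 cells (89.3%, 71.8 to 97.7%), and in all 8 cells with both Trav12-2 and Trbv15. It was detected in 11 of 33 Trbv12-2 cells (33.3%, 18.0 to 51.8%) and 2 of 23 Trav3-3 cells (8.70%, 1.07 to 28%), the segments that were paired with each other in 2 cells. Trbc2 was detected in every cell of these segments and outnumbered Trbc1 even in Trbv15 cells, by 1320 to 315 UMIs. The 2 genes have nearly the same coding sequence and their reads may be split, so only the presence of Trbc1 is compared here.

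In EM, Trbc1 was detected in 35.9% of CD8 cells (34.1 to 37.9%). It was detected in none of the 15 Trbv3 cells, with 0 Trbc1 against 159 Trbc2 UMIs, and in none of the 8 Trbv17 cells, with 0 against 89. These zeros have upper interval limits of 21.8% and 36.9%. It was detected in 1 of 16 Trav16d-dv11 cells (6.25%, 0.158 to 30.2%) and in 8 of 10 Trbv2 cells (80.0%, 44.4 to 97.5%). It was detected in 2 of 12 Trbv12-2 cells (16.7%, 2.09 to 48.4%) and 1 of 5 Trav8n-2 cells (20%, 0.505 to 71.6%). Both of these intervals, and that of Trbv17, include the share of all CD8 cells of EM. Low Trbc1 is thus not established for these segments.

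Trbv3 in PBS fell into 2 sets by Trdc, the constant gene of the delta chain, which lies inside the alpha locus and is lost from a chromosome when that locus joins a Trav segment. Trdc was detected in 80 of 3188 PBS CD8 cells (2.51%), and in 12 of the 27 Trbv3 cells (44.4%, 25.5 to 64.7%), but in 0 CD8 cells assigned to another Trbv segment. The 12 Trbv3 cells with Trdc held 0 Trbc1 and 98 Trbc2 UMIs, while 13 of the 15 Trbv3 cells without Trdc had Trbc1 (86.7%, 59.5 to 98.3%). All 12 had Cd8b1, 7 had Pdcd1, and none held more than 4 Trdc UMIs. On the alpha side Trdc was detected in 4 of the 5 Trav14-3 cells of PBS, none of which had Trbc1. No Trbv3 cell of EM had Trdc. With all cells with a Trdc UMI removed, Trbv3 was at 15 CD8 cells in each library, and its ratio of EM over PBS moved from 1.75 to 3.08 (1.40 to 6.76). This filter took Trbv3 cells from PBS alone, so the rise followed from the filter and nothing is read from it. In the thinned cells given above, the Trbv3 share was lower in EM than in PBS.

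**Figure D4:**
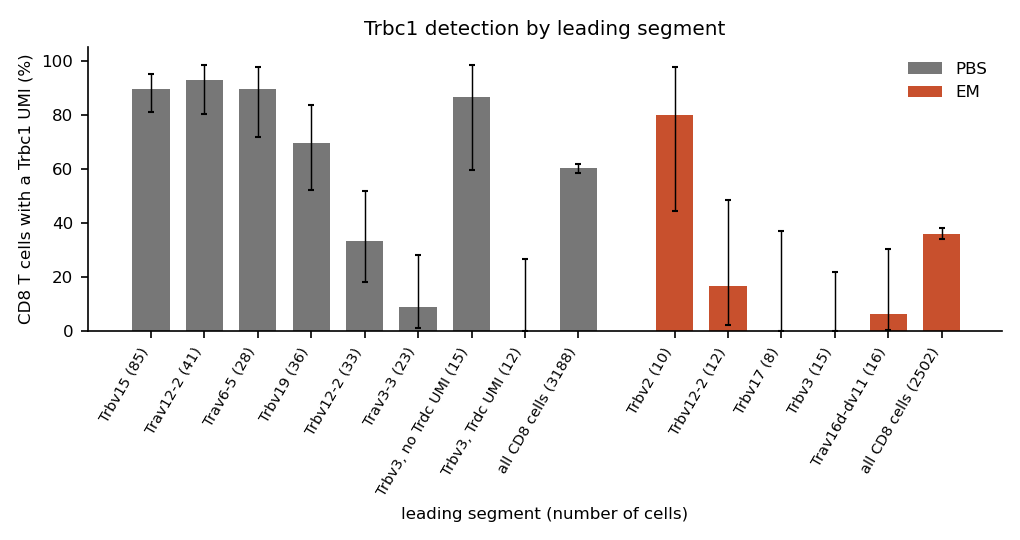
Share of CD8 T cells with a Trbc1 UMI (y axis, percent) by leading segment (x axis, number of cells in brackets) in PBS (grey) and EM (orange-red), with all CD8 cells of each library at the right of its bars; lines are exact 95% intervals for counting error. PBS Trbv15, Trav12-2 and Trav6-5 cells stand at 89.4%, 92.7% and 89.3%, and Trbv3 cells with Trdc in PBS and all Trbv3 cells in EM stand at 0.

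Cells that carried the leading segments differed from other assigned CD8 cells of their own library in several genes. The segments for this comparison were chosen after their use was known, and the median depths were 5597 and 5641 UMIs for Trbv15 and other Trbv cells of PBS. Tox, a factor of chronically stimulated T cells, was detected in 72.9% of the 85 Trbv15 cells (62.2 to 82.0%) and 46.8% of the 158 others (38.9 to 54.9%). Itga1, an integrin of tissue-resident T cells, was detected in 52.9% (41.8 to 63.9%) and 30.4% (23.3 to 38.2%), and Pdcd1 in 78.8% (68.6 to 86.9%) and 53.8% (45.7 to 61.8%). The chemokine Xcl1 was detected in 0 of 85 and 11 of 158 (6.96%), and Havcr2, the gene of the inhibitory receptor TIM-3, in 60% and 50%, intervals that overlap. Frequent Pdcd1 was not particular to Trbv15 cells. It was detected in 25 of 33 Trbv12-2 cells (75.8%, 57.7 to 88.9%) and 7 of 7 Trbv29 cells. In Trbv3 and Trbv19 cells it was detected in 15 of 27 (55.6%) and 16 of 36 (44.4%). Cells in cycle, with a Mki67 or Top2a UMI, were 44.7% of Trbv15 cells (33.9 to 55.9%) and 47.3% of all Trbv-assigned CD8 cells of PBS.

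In Trbv19 cells of PBS, Tox was detected in 10 of 36 (27.8%, 14.2 to 45.2%) against 60.9% of other Trbv cells, Pdcd1 in 16 of 36 (44.4%, 27.9 to 61.9%) against 65.7% (58.8 to 72.1%), intervals that overlap, and Il7r, the receptor of the survival cytokine interleukin 7, in 33 of 36 (91.7%, 77.5 to 98.3%) against 67.1% (60.3 to 73.5%). Other genes of inhibition and killing stood higher in Trbv19 cells, with overlapping intervals. Entpd1 was detected in 66.7% (49.0 to 81.4%) against 46.4% (39.4 to 53.4%), Havcr2 in 63.9% against 51.7%, Lag3 in 47.2% against 34.8%, and Gzmb in 88.9% against 75.8%.

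In EM, the 15 Trbv3 cells stood apart from the 62 other Trbv cells in effector genes. Xcl1 was detected in 11 of 15 (73.3%, 44.9 to 92.2%) and 9 of 62 (14.5%, 6.86 to 25.8%), and Ifng, the gene of interferon gamma, in 13 of 15 (86.7%, 59.5 to 98.3%) and 21 of 62 (33.9%, 22.3 to 47.0%). Gzmb, the gene of the cytotoxic protease granzyme B, was detected in 4 of 15 (26.7%, 7.79 to 55.1%) and 47 of 62 (75.8%, 63.3 to 85.8%). Median depths were 3996 UMIs in the Trbv3 cells and 2997 in the others. Of the 20 assigned EM CD8 cells with Xcl1, 11 were led by Trbv3 (55%, 31.5 to 76.9%), against 4 of 57 without Xcl1 (7.02%). The same split in PBS gave Trbv3 in 1 of 11 cells with Xcl1 (9.09%, 0.230 to 41.3%) and 26 of 232 without (11.2%). In EM, Trav16d-dv11 showed Xcl1 in 10 of 16 cells (62.5%) against 10 of 34 others (29.4%), with overlapping intervals. Gzmk was detected in 0 of the 16 (at most 20.6%) against 14 of the 34 (41.2%, 24.6 to 59.3%).

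**Figure D5:**
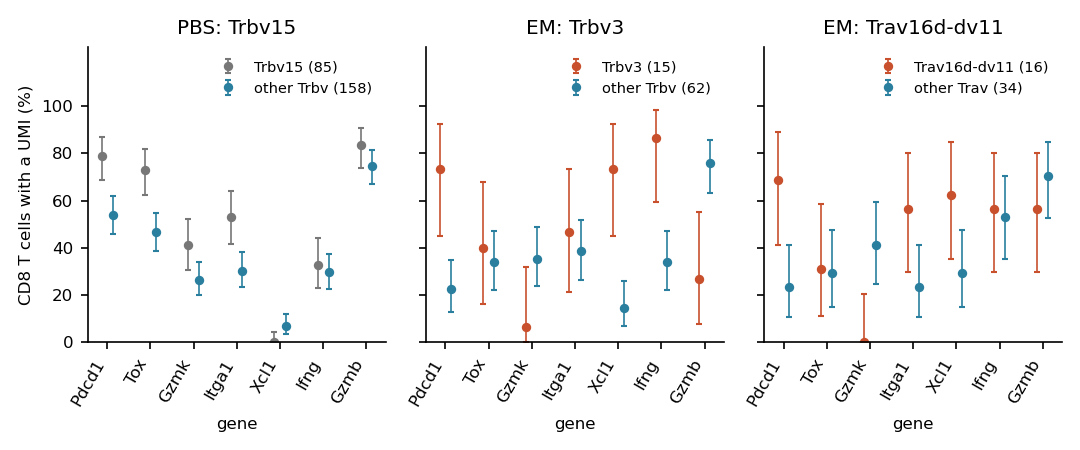
Share of CD8 T cells with a UMI of each gene (y axis, percent; genes on the x axis) in cells led by Trbv15 in PBS, Trbv3 in EM and Trav16d-dv11 in EM (grey or orange-red) and in the other assigned cells of the same chain and library (blue), with exact 95% intervals for counting error and cell numbers in brackets. Tox stands at 72.9% against 46.8% for Trbv15, and Xcl1 at 73.3% against 14.5% for Trbv3.

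CD4 cells had 45 Trbv-assigned cells in each library. Trbv2 led in 14 in PBS (31.1%, 18.2 to 46.7%) and 8 in EM (17.8%, 8 to 32%), a ratio of 0.571 (0.208 to 1.46). With at least 4 Cd3 UMIs asked of a T cell the ratio was 0.196 and excluded equality. The segment Trbv31, which lies at the far end of the beta locus in inverted orientation, led in 9 EM cells (20%, 9.58 to 34.6%) and in no PBS cell, at least 3-fold higher against a floor of 3 PBS cells, with an exact ratio interval from 1.97 upwards. Trbv12-2 led in 7 and 4 cells, Trbv3 in 5 and 4, and Trbv15 in 2 and 3, each with an interval that included equality. Of these, only Trbv2 reached 20 cells in both libraries together, and it was not called (0 of 1, 0%). The Trbv effective number in CD4 cells was 7.62 in PBS and 11.0 in EM.

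The CD4 alpha chains were spread over many segments. The 30 PBS cells used 18 Trav segments and the 28 EM cells 19, with effective numbers of 17.4 and 37.8 that became 9.46 and 9.69 when near copies were summed by family. Trav3-3 led with 6 PBS cells (20%) and 0 EM cells, at least 1.87-fold lower against a floor of 3 EM cells, with an exact ratio interval of 0 to 0.910. With CD4 cells that are also CD8 cells left out 4 and 0 cells remained and the interval included equality (0 to 1.40). Trav14d-3-dv8 led in 1 and 3 cells, Trav16n in 4 and 1, and Trav4-4-dv10 and Trav19 in 2 each in both libraries.

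Foxp3 cells gave too few assigned cells for an effective number, 8 and 19 for Trbv and 9 and 16 for Trav. Trbv31 led in 4 of the 19 EM cells (21.1%, 6.05 to 45.6%) and none of 8 in PBS. All 4 of these EM cells were also CD4 cells and are counted above, so they are not a separate result. Trbv2 led in 2 and 3 cells, Trbv3 in 2 and 1, Trbv13-2 in 1 and 2, and Trbv15 in 2 and 0. For Trav no segment led in more than 2 Foxp3 cells of either library.

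Along the alpha locus, assigned CD8 cells of PBS used segments without a d or n mark in 152 of 173 cells (87.9%, 82.0 to 92.3%), d copies in 4.05% and n copies in 8.09%. In EM these were 40% (26.4 to 54.8%), 38% and 22%. Of the 19 EM cells with d copies, 16 were led by Trav16d-dv11. The 43 Trav segments at the end of the locus nearest to the joining segments held 85.5% of the PBS cells and 40% of the EM cells. Those 148 PBS cells included the 41 with Trav12-2, 28 with Trav6-5 and 23 with Trav3-3. These shares are thus not separate from the segments named above. In CD4 cells the 43 segments held 66.7% (47.2 to 82.7%) and 46.4% (27.5 to 66.1%), intervals that overlap. The unmarked and d copies can be separated only where their reads differ.

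As a level over all T cells, the Trbv segments summed to 15.0 CPM in PBS (13.4 to 16.7) and 11.2 in EM (9.47 to 13.2), a log2 ratio of EM over PBS of -0.41 (-0.71 to -0.13). The Trav segments summed to 10.7 and 7.39 CPM, a log2 ratio of -0.53 (-0.89 to -0.18). The constant genes Trac, Trbc1 and Trbc2 together were at 3275 and 3632 CPM, a log2 ratio of 0.15 (0.13 to 0.17), so variable UMIs per 1000 beta constant UMIs were 7.55 and 5.16. Single segments spanned a wide range. Trbv15 went from 4.28 CPM in PBS to 0.314 in EM (log2 ratio -3.77, -5.67 to -2.37), Trbv31 from 0.270 to 1.10 (2.02, 0.55 to 3.69) and Trav16d-dv11 from 0.0902 to 1.49 (4.05, 2.00 to 7.2). Of the 13 segments with at least 20 UMIs in T cells, 2 were at least 2-fold higher in EM and 5 at least 2-fold lower, where 17.1% of all 13257 genes so measured were 2-fold apart, 4.99% higher and 12.1% lower. A segment could reach 20 UMIs through the library in which it was high, so nothing is read from this count. Within CD8 cells the log2 ratio of the summed segments was -0.33 (-0.71 to 0.03) for Trbv and -0.55 (-1.02 to -0.11) for Trav. Within CD4 cells it was -0.42 (-1.02 to 0.17) and -0.48 (-1.25 to 0.28). Of these, only the interval of Trav in CD8 cells excluded equality.

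Of the 165 segments, 75 had a UMI in T cells of either library and 90 had none. All 22 functional Trbv segments and 49 of 110 functional Trav segments were detected, but only 4 of 33 pseudogenes. The pseudogene Trbv24 had 3 UMIs in PBS and 1 in EM, and Trav9n-1 (2 UMIs), Trav8-2 (1) and Trav20 (1) were seen in EM alone. Detection of Trav segments went with how distinct their sequence is: 37 of the 61 undetected functional segments had no stretch of 60 bases that is absent from every other segment, and none of the 49 detected ones lacked such a stretch. Trav11 and Trav11d, known from the invariant receptor of natural killer T cells, had 0 UMIs in both libraries and no such stretch either, and these zeros were not read as absence of the cells. Trav1, used by mucosal-associated invariant T cells, had 1 UMI in PBS and 2 in EM. Across the 22 functional Trbv segments the CD8 cell counts of PBS and EM had a Spearman correlation of 0.70, and across the 110 functional Trav segments 0.31, as a description over segments that share library, depth and zeros.

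The partners of the segments in the receptor complex are the constant genes, the CD3 and zeta chains and the coreceptors. Of these 10 genes, 1 was at least 2-fold higher in EM T cells and 0 lower, against 4.99% and 12.1% of all genes measured, too few genes to tell from that share. That was the coreceptor Cd4, with 120.8 CPM in PBS and 365 in EM (log2 ratio 1.60), in libraries whose T cells were 16.9% and 31.8% CD4 cells. The log2 ratio was 0.17 for Trac, -0.22 for Trbc1 and 0.21 for Trbc2. Among the signalling chains it was 0.37 for Cd3d, 0.47 for Cd3e, -0.20 for Cd3g and 0.27 for Cd247, and among the CD8 coreceptor genes -0.72 for Cd8a and 0.23 for Cd8b1. The list median was 0.22, against -0.13 over all genes measured. Cd3d, Cd3e and Cd3g also set which cells counted as T cells, so their levels rest in part on that choice.

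For the lists that follow, the share of all genes was again 4.99% higher and 12.1% lower. Of 27 genes of proximal signalling, 1 was at least 2-fold higher in EM and 0 lower, with a median log2 ratio of 0.04. The highest were Trat1, an adaptor that binds the receptor complex (1.03), and Prkcq, a kinase of the synapse (0.67), and the lowest Pag1 (-0.91), an adaptor that recruits the inhibitory kinase Csk, and the phosphatase gene Ptpn22 (-0.81). Of 10 genes induced by antigen, Cd69 (2.39) and Tnfrsf4 (1.01) were at least 2-fold higher and Pdcd1 (-1.14) lower, with Nr4a2 at -0.93. Tnfrsf4 stood at 0.99, short of 2-fold, with equal weight per cell or without ribosomal, mitochondrial and receptor genes in the total. All 4 measured gamma and delta constant genes were past 2-fold, with Trgc4 at 3.07, Trgc1 at 2.38 and Trdc at 2.05, and Trgc2 at -1.02. Within CD8 cells Trdc was lower in EM, at -0.53 (-0.95 to -0.12). There Trgc4 was at 3.75, Trgc1 at 0.96 and Trgc2 at -0.84. Among genes of invariant T cells, the log2 ratio was 1.13 for Zbtb16, a factor that directs their development, -0.64 for Mr1 and 0.23 for Cd1d1, which encode molecules that present antigen to them. None of the 4 recombination genes, which act in the thymus, reached 20 UMIs.

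The lists of the receptor complex, of signalling and of genes induced by antigen were also counted within the subsets. In CD8 cells 1 of the 10 receptor complex genes was at least 2-fold higher in EM, Cd4 (log2 ratio 1.41), and 0 were lower. The shares of all 12457 genes were 3.93% and 13.6%. In CD4 cells 0 were higher and 1 lower, Cd8a (-1.52), against 4.19% and 7.74% of 10809 genes. In Foxp3 cells 0 were past 2-fold either way, against 5.85% and 7.02% of 8937 genes. This list holds Cd3d, Cd3e, Cd3g, Cd8a, Cd8b1 and Cd4, which set the cell classes, so nothing is read from its counts. Of the 27 signalling genes 0 were higher and 1 lower in CD8 cells, 0 and 1 in CD4 cells, and 1 and 3 in Foxp3 cells. Of the 10 genes induced by antigen 1 was higher in CD8 cells and 2 were lower, Pdcd1 and Tox (log2 ratio -1.14). These counts were 1 and 0 in CD4 cells, and 2 and 0 in Foxp3 cells. In CD8, CD4 and Foxp3 cells in turn, the log2 ratio was 2.55, 1.93 and 1.52 for Cd69. It was -0.99, 0.58 and 0.63 for Tnfrsf4, and -1.11, -0.64 and 1.14 for Pdcd1. Tnfrsf4 was thus lower in EM within CD8 cells, though short of 2-fold, and Pdcd1 higher within Foxp3 cells.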

How the data were processed

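Single-cell RNA of immune cells sorted from gliomas was measured in 1 PBS and 1 EM library. The deposited values are unnormalised counts of UMIs for each gene in each barcode, made with CASAVA 1.8 and STARsolo on mm10 per the submitters' processing notes. How reads matching several genes were counted is not given in the sources used here. Cells with at least 500 UMIs, 200 genes and at most 20% mitochondrial UMIs were kept, 7756 of 8333 barcodes in PBS and 7967 of 8039 in EM, with medians of 4303 and 2016 UMIs. No doublet caller was run, and 97 PBS and 91 EM T cells passed both the CD8 and the CD4 rule. A cell was assigned to the segment of a chain with the most UMIs, and ties were left out. Shares have Clopper-Pearson, sums exact Poisson and ratios conditional binomial 95% intervals. A count of 0 was set to a floor of 3 cells for a fold limit, which omits the counting error of the other library. The effective number is the inverse unbiased Simpson index, given from 20 assigned cells on. Genes entered list counts with at least 20 UMIs. Thinning to 1000 UMIs kept each cell's class from its full counts.

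Named were, per chain and subset, the 5 segments with the highest mean share, the 3 highest and 3 lowest ratios among segments with at least 20 assigned cells whose interval excludes equality, Trav11, Trav11d, Trav1 and detected pseudogenes, all receptor complex genes, and the 2 highest and 2 lowest of each other list. Trbv17, Trav8n-2, the pairs, and the splits by Trbc1, Trdc, Pdcd1, Xcl1 and other genes were chosen after their values were seen. The result of 1 listed gene is not reported here. Members and lists were chosen with earlier results of these data known. Sequences came from GENCODE M21, where all 165 segments matched by identifier. The ratio interval and the mean of the unbiased Simpson index over repeated draws were tested on simulated data. For the ratio interval these were independent counts of genes with more PBS UMIs than any segment. Its behaviour with small counts or with cells of 1 clone was not tested. The share and sum intervals and the spread of a single effective number were not tested either. Python 3.11.15, numpy 2.4.6, scipy 1.17.1, pandas 2.3.3 and matplotlib 3.10.9 were used.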

Additional observations from a re-analysis of the deposited data

How the results depend on the processing

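No paired analysis was possible because each group is 1 library. Shares, ratios and effective numbers were recomputed with no cell filter, at least 1000 UMIs per cell, at least 4 Cd3 UMIs, exclusive subsets, no cells with a Trdc UMI, shares of UMIs, cells with 1 segment, segments summed by family, and cells thinned to 1000 UMIs, and, chosen after seeing the data, without shared barcodes and without cells with myeloid or B cell UMIs. None of these reversed a called value. Without shared barcodes and without myeloid or B cell UMIs, 53 of 53 values each stayed within their interval and on their side of the call. With segments summed by family, the Trav effective number became 3.06 in CD8 cells of EM, 4.01 in those without Pdcd1 and 7.56 in the PBS cells without Pdcd1, and 9.46 and 9.69 in CD4 cells of PBS and EM. The share of the leading Trav family was then 54% in CD8 cells of EM, 45.2% in those without Pdcd1 and 29% in PBS cells without Pdcd1. After thinning, the Trav effective number of Pdcd1-positive PBS cells was 11.5, Trbv15 led in 53.6% of the Pdcd1-positive PBS cells, Trbv3 in 7.14% of CD8 cells of EM, and Trav12-2 had a ratio of 0.729 with its EM cells at the floor of 3 and an interval that included equality (0 to 1.18). Thinning set the assigned share of T cells to 1.59% in PBS and 1.00% in EM for Trbv, and to 1.09% and 0.939% for Trav. At least 2 UMIs of the segment left 0.517% and 0.122% for Trbv and 0.246% and 0.0816% for Trav, too few for shares or evenness. With equal weight per cell 2 signalling genes were past 2-fold, Pag1 (-1.05) joining Trat1. Thinned values of Trav6-5 and Trav3-3 in CD8 cells could not be given, since both libraries lay at or under the smallest share that can be set. Depth limits all of this: most assigned cells rest on 1 UMI, joining segments were not read, and cells that share a segment need not share a clone.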
